A study of Homo sapiens with 6 samples.

Results

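The comparison set the genomic binding of a mutant estrogen receptor, Y537S ERα, beside that of wild-type ERα in cells grown without added estradiol. Its members were the peaks on chromosomes 1 to 22 of 2 lists, one for each receptor, merged into 1 region where peaks overlapped by at least 1 bp. This gave 141848 regions. A separate merge of all 6 lists of the series, made in the same way, gave 169433. Binding had been measured by sequencing immunoprecipitated chromatin (ChIP-seq) with the anti-ERα antibody D8H8 in MDA-MB-453, an established human breast cancer line with features of apocrine, androgen receptor-positive tumours. The cells carried wild-type, Y537S or K303R ERα under doxycycline control and were kept in McCoy's 5A medium with 10% fetal bovine serum. After 2 days of growth they received 2 µg/mL doxycycline alone or with 1 nM estradiol (E2) for another 2 days, and each of the 6 combinations gave 1 library. The groups compared here are wild-type ERα with doxycycline alone and Y537S ERα with doxycycline alone. Both therefore had the antibiotic, the induced receptor and serum, which the labels do not describe as hormone-depleted, and neither was an uninduced control. The libraries came from different engineered lines, and peak names carry a tag that the wild-type list shares with the K303R list and not with the Y537S list. Receptor, cell line and whatever the tag stands for cannot be told apart. The lists hold no expression values, so the cell type and the level of the induced receptor were not checked against marker genes. Total read numbers are not in the lists, and the lowest local background was 1.21 fragments in wild type and 0.988 in Y537S. With 1 library on each side no difference has a replicate check, and no p-value is given. Every interval is a 95% interval that covers counting error only.

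ERα is a nuclear receptor that binds DNA as a dimer at the estrogen response element, an inverted repeat of a short half-site, and recruits coactivators when estradiol holds its ligand-binding domain in the active shape. Y537S replaces a tyrosine of that domain by a serine. It is a recurrent mutation of hormone-treated metastatic breast cancer and stabilises the active shape without hormone. In luminal breast cancer cells the receptor acts with pioneer factors such as FOXA1 and GATA3 and drives genes such as GREB1 and PGR, whereas in apocrine cells the androgen receptor occupies much of the same regulatory landscape.

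The size of a peak is given here as its summit fragments, the number of sequenced fragments at its highest point, which was recovered from the authors' fold enrichment and −log10 p. A region was compared when it was in both lists and had a mean of at least 50 summit fragments over the 2 libraries. Its ratio, Y537S over wild type, was divided by the median ratio of all compared regions, so that each ratio is relative to the median region. A region is called higher or lower in Y537S where this ratio lies past 1.5-fold and an exact counting interval that allows 0.1% error does not reach 1. Sequences are shown for promoters that held the summits of a region in both libraries, the places where the DNA under a difference can be read here. They are the RefSeq windows of GRCh38.p14 from 250 bases before to 50 bases after a gene's start, printed 5′ to 3′ on the gene's strand. Capitals mark each estrogen response element half-site, GGTCA or its reverse complement, and in SLC35B2 the full element GGTCANNNTGACC. VAMP3 (chr1:7771046-7771345, plus strand) and ABCG5 (chr2:43838790-43839089, minus strand) had the highest ratios among protein-coding promoters. THSD4 (chr15:71096644-71096943, plus strand) and SLC30A4-AS1 (chr15:45448104-45448403, plus strand, listed by RefSeq as protein-coding) had the lowest. SLC35B2 (chr6:44257479-44257778, minus strand) held the complete element under the most fragments, and CTSD (chr11:1763878-1764177, minus strand) is a textbook estrogen target. 
VAMP3: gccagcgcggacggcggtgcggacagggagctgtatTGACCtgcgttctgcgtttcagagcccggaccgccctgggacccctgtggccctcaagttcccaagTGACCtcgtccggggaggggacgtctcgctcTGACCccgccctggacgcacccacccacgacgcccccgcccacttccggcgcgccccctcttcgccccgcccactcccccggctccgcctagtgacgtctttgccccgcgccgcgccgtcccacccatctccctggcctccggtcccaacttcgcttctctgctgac
ABCG5: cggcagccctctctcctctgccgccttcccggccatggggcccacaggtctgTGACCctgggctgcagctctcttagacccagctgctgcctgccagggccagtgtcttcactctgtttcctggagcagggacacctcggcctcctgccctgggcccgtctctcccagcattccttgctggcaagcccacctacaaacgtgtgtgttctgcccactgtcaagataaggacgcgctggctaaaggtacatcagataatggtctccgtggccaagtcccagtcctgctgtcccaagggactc
THSD4: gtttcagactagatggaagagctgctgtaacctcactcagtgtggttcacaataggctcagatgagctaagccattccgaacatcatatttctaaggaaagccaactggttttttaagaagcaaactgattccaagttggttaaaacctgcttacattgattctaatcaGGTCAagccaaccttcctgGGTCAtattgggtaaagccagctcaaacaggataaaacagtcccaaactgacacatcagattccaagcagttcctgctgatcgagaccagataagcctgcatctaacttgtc
SLC30A4-AS1: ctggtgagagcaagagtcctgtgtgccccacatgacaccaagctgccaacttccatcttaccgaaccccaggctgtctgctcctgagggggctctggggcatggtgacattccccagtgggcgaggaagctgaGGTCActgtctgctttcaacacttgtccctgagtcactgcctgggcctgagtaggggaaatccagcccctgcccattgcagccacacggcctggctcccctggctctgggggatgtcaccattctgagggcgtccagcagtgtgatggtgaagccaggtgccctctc
SLC35B2: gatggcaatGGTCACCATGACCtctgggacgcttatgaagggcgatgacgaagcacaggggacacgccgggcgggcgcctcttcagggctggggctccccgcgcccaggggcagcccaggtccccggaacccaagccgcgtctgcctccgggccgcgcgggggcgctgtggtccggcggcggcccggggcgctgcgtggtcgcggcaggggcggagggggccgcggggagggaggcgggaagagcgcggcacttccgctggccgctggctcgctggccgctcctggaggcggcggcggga
CTSD: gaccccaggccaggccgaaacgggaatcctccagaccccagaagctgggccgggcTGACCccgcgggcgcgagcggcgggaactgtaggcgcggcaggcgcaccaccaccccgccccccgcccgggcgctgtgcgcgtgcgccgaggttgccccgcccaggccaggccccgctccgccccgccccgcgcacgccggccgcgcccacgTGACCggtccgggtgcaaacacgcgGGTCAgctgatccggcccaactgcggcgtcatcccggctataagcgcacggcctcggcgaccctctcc

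At VAMP3, which encodes a vesicle fusion protein, the summit held 58 fragments in wild type and 156 in Y537S, a ratio of 2.82 (2.07 to 3.88). At ABCG5, a subunit of a sterol exporter, the values were 56 and 150 (2.81, 2.05 to 3.89). The SERPINE2 promoter, at a gene for a secreted protease inhibitor, was the next highest, with 47 and 112 fragments (2.50, 1.76 to 3.59). These 3 were all well above the wild-type count in Y537S, and the 2 printed windows hold half-sites only. The THSD4 promoter, at a gene for an extracellular matrix protein, went the other way, from 201 fragments in wild type to 47 in Y537S (0.245, 0.174 to 0.338), with 2 half-sites in the window. SLC30A4-AS1 had 92 and 35 (0.399, 0.262 to 0.594). BCL3, a cofactor of NF-κB, was the third lowest, with 104 and 47 (0.474, 0.328 to 0.675), and its window holds no half-site. SLC35B2, which transports the sulfate donor into the Golgi, had 91 and 54 fragments at its full element (0.622, 0.436 to 0.880), which was not called. The lysosomal protease gene CTSD had 48 and 100 (2.18, 1.53 to 3.15). Half-sites stood in windows called higher and in windows called lower.

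Promoters of this kind were few, and the estrogen response element and its half-site were more frequent in them than in promoters in general. Of 33551 RefSeq promoter windows, 517 held both summits of a compared region, of which 45 were called higher and 22 lower. No window lay on chromosome 8, so its 1792 compared regions could not enter this count. Over all compared regions 9.69% were called higher and 7.46% lower. At least 1 half-site, searched on both strands, was in 376 of the 517 windows (72.7%), against 37.4% of all windows. The full element was in 4 (0.774%), against 0.0596% of all windows. The element with up to 1 mismatch, a search that includes the full element and overlaps the half-site search, was in 40 (7.74%), against 0.838%. The 45 higher windows and the 22 lower windows held the half-site in 33 (73.3%) and 17 (77.3%) cases. The element with up to 1 mismatch was in 4 of each (8.89% and 18.2%). The forkhead motif TGTTTAC, read by pioneer factors of the FOXA family, was in 0 of 45 and 4 of 22, against 3.87% of the 517 windows and 3.45% of all windows. The AP-1 motif TGANTCA was in 2 and 4, against 62 of the 517 and 7.68% of all windows. These counts are small, and a match is a description of the letters, not a site. Median GC content was 63.3% in higher windows, 54.8% in lower windows and 63.3% in the 450 windows with neither call.

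Most of the binding map was common to both receptors. The wild-type list held 121641 peaks with a median of 27 summit fragments, and the Y537S list held 113714 with a median of 25. The strongest summits had 435 and 403 fragments. Both lists held 91766 of the 141848 merged regions (64.7%), 29248 (20.6%) came from wild type alone and 20834 (14.7%) from Y537S alone. As a share of each list, 76.0% of wild-type peaks overlapped a Y537S peak, and 81.7% of Y537S peaks overlapped a wild-type peak. The overlap rose with strength. With each list cut into 10 groups by −log10 p, it was 35.1% for the weakest group of wild-type peaks, 48.7% for the weakest group of Y537S peaks and 100% for the strongest group of each. Regions of 1 list only were weak, with a median of 13 fragments for wild type and 11 for Y537S.

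**Figure D1:**
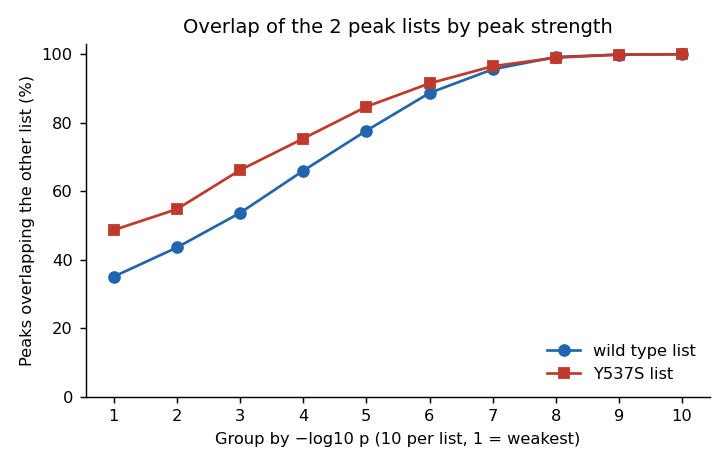
Share of peaks in each list (percent, y axis) that overlap a peak of the other list, in 10 groups by the list's own −log10 p (x axis, 1 = weakest). Both lines climb to 100% for the strongest group, from 35.1% for wild type and 48.7% for Y537S.

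Only 14 wild-type and 24 Y537S regions of 1 list alone reached 100 fragments, and most of the strongest stood beside a region of the other list. The strongest of wild type, inside NHERF1, a scaffold gene and estrogen target, had 185 fragments over a local background of 57.1 (chr17:74759934-74760292). The Y537S list had a region with 372 fragments 217 bp away. The others of the 5 strongest in wild type were at PNPLA3 (136 fragments), IL24 (129), SLC26A9-AS1 (127) and MED24 (124), with a Y537S region 233 to 2131 bp away. In Y537S they were at MLST8, a subunit of the mTOR complexes (189 fragments), WDR90 (169), LOC105374705 (139), LOC101928902 (136) and MGRN1 (126). Of these, the region inside the non-coding gene LOC105374705 stood alone (chr5:29949270-29949741). It had a deposited fold of 28.2 over a local background of 3.96, and the nearest wild-type region was 52169 bp away. With E2 the same place had 16 fragments in the wild-type library and 141 in the Y537S one, and it had 11 in K303R with E2.

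Where both lists held a well-covered region, the counts of the 2 libraries were close in most cases. Of 35030 compared regions, 73.3% lay within 1.5-fold and 8.93% past 2-fold. The summits of the 2 libraries were a median of 19 bp apart. The other 56736 shared regions had a mean under 50 fragments and were not compared. In all, 3396 regions (9.69%) were called higher and 2613 (7.46%) lower in Y537S, and 29021 neither. The higher regions had a median of 58 fragments in wild type and 115 in Y537S, and the lower regions 111 and 51, while the others had 100 and 96. The local background moved the same way, from a median of 3.90 in wild type to 6.49 in Y537S at the higher regions and from 6.79 to 3.18 at the lower. The sources used here do not say whether that background came from a control library, and its part in the difference was not tested. With ratios of the deposited folds, which divide by this background, 915 regions were higher and 801 lower, and 617 of the 3396 higher and 504 of the 2613 lower calls were among them. The split between directions depends on the scaling. Higher regions made up 56.5% of the calls here. They made up 84.1% (6193 against 1171) when the libraries were scaled by their lowest local background, which moves the median of all regions by 0.225 on the log2 scale. The share was 48.5% (2913 against 3088) when each library was scaled by its median count over the compared regions. A region with few fragments on one side enters the comparison only through the other, so these counts describe the compared regions and not all members.

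**Figure D2:**
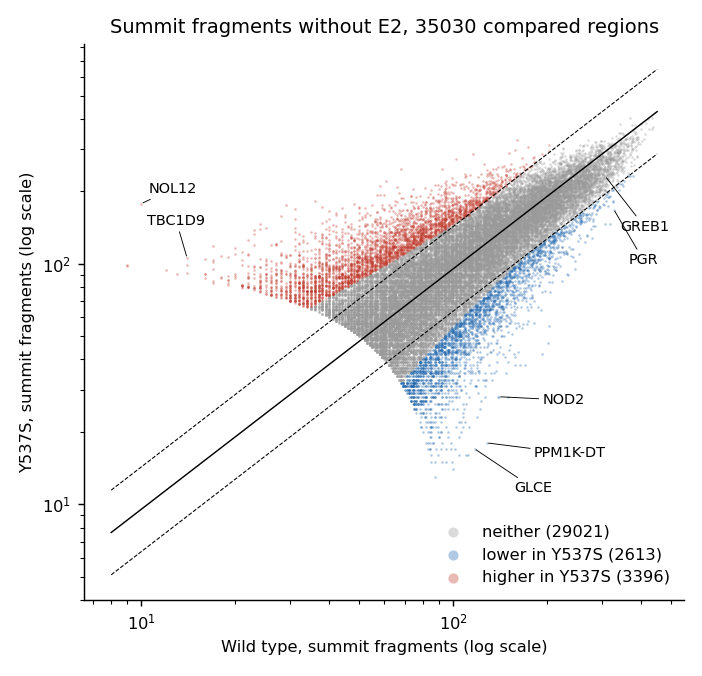
Summit fragments of the 35030 compared regions in wild type (x axis, log scale) and Y537S (y axis, log scale), both without E2. The solid line is the median ratio and the dashed lines 1.5-fold either way; the 3396 higher and 2613 lower regions fan out at low and middle counts, while the strongest regions stay near the line.

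The share of regions past 2-fold fell as fragments rose. Of 222 regions with a mean of 300 fragments or more, 0 were called higher and 1 lower, and their median log2 ratio was −0.12. Among the 11562 regions with a mean of 50 to 75 fragments, 10.6% were higher and 9.67% lower, and 16.4% lay past 2-fold. A given fold is easier to call at more fragments. The share past 2-fold, which needs no call, was 1.08% at 150 to 200 fragments and 0% at 300 or more. The strongest summits of the lists had 435 and 403 fragments, so a mean of 300 or more left almost no room for 2-fold. That 0% therefore cannot show that the strongest regions were alike.

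The regions farthest above wild type in Y537S were weak in wild type and strong in Y537S, which follows from their choice by ratio. A region inside NOL12, a nucleolar RNA-binding protein gene, had 10 fragments in the wild-type library and 178 in the Y537S one (18.7, 9.91 to 39.6; chr22:37688523-37689300). At LOC124903390, a non-coding gene 6718 bp from its region, the counts were 9 and 98 (11.4, 5.77 to 25.7; chr14:102768063-102768639). TBC1D9, a gene of the Rab GTPase regulator family that is high in luminal tumours, had 14 and 106 (7.93, 4.53 to 15; chr4:140622157-140622920). Wild type was thus below the median of its own list, 27 fragments, at each of these. Next came FAM78A with 12 and 94, the endocytic adaptor gene EPN3 with 17 and 119, and DYNC1H1, the heavy chain of cytoplasmic dynein, with 29 and 176. MAPKAPK3, a kinase of the p38 pathway, had 14 and 99, the semaphorin receptor gene PLXNB2 24 and 146, and C20orf203 13 and 91. The last 3 of the 12 were CSMD1 with 16 and 105, the synaptotagmin family gene SYT16 with 28 and 158, and NCOA6, a nuclear receptor coactivator, with 23 and 138 (6.29, 4.02 to 10.2; chr20:34754486-34755069). In these 12 the wild-type counts ran from 9 to 29 and the Y537S counts from 91 to 178. Of the 12, 9 lay inside a gene span, beside 58.1% of all compared regions and 62.1% of all higher ones.

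The most reduced regions were the mirror image in size. PPM1K-DT, a non-coding gene, had 128 fragments in the wild-type library and 18 in the Y537S one (0.147, 0.0846 to 0.242; chr4:88334762-88335400). GLCE, an enzyme of heparan sulfate synthesis, had 117 and 17 (0.152, 0.0858 to 0.254; chr15:69194749-69195425). TTC7A, a scaffold of a lipid kinase complex, had 111 and 16 (0.151, 0.0835 to 0.256; chr2:47043388-47044000). In each of these Y537S kept a listed peak of fewer fragments than its median of 25. EQTN had 100 and 14, LOC105374506 110 and 16, and LAMB3, a chain of the basement membrane protein laminin-332, had 99 and 15. RIOK1, a kinase of small ribosomal subunit maturation, had 95 and 15, AP3B1, a subunit of the AP-3 vesicle adaptor, had 101 and 17, and LRBA had 92 and 15. The homeobox gene MEIS2 had 87 and 15, NOD2, a sensor of bacterial cell wall fragments, had 140 and 28, and GABRG3, a GABA receptor subunit, had 95 and 17. The wild-type counts of the 12 ran from 87 to 140 and the Y537S counts from 14 to 28. Again 9 lay inside a gene span, beside 54.2% of all lower regions. These 12 higher and 12 lower regions, chosen for the size of their ratio, kept their call with ratios of the deposited folds, within 5 Mb windows and scaled by the lowest local background. With the deposited folds most other calls did not, as the 617 of 3396 and 504 of 2613 above show.

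**Figure D3:**
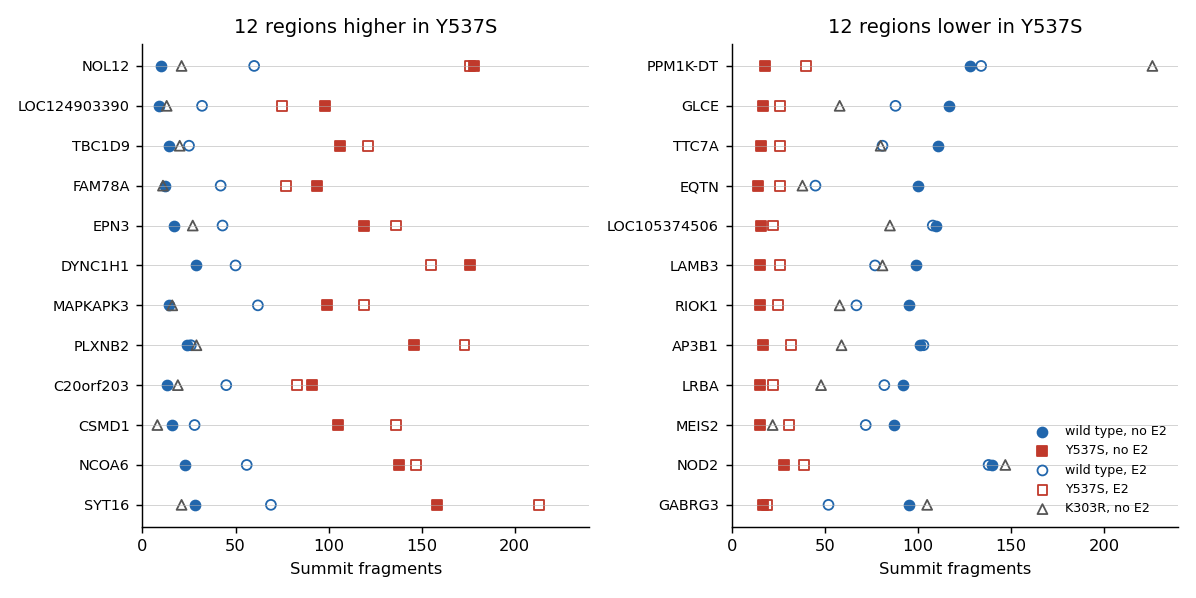
Summit fragments (x axis) at the 12 higher and 12 lower regions named by rule (y axis), 1 symbol per library: filled symbols without E2 for wild type and Y537S, open symbols for both with E2 and for K303R without E2. K303R is not listed at DYNC1H1 and NCOA6; at the lower regions Y537S stays between 14 and 40 fragments in both treatments.

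The same lines grown with E2 kept the side of nearly all of these regions. This second pair of libraries uses the same 2 lines and the same tags, so it repeats the comparison of the lines and does not replicate the receptor. All 12 higher regions named above were above 1 with E2 (ratios 1.74 to 6.30), and all 12 lower ones below 1 (0.193 to 0.547), though FAM78A (1.74), C20orf203 (1.75) and EQTN (0.547) were no longer called. Of the 3396 higher regions, 3390 were in both E2 lists, 96.7% of those were above 1, and 1577 (46.5%) were called higher again. Of the 2613 lower regions, 2593 were in both, 97.0% were below 1, and 1270 (49.0%) were called lower again. In both sets 0 were called in the opposite direction. The median ratio moved from 2.02 to 1.57 at higher regions and from 0.494 to 0.601 at lower regions. The regions had been chosen by their counts without E2. At higher regions the median wild-type count was 58 without and 75 with E2, and the Y537S count 115 and 127. At lower regions the wild-type counts were 111 and 101, and the Y537S counts 51 and 62. The gap at NOL12 narrowed from the wild-type side, with 60 fragments in the wild-type library and 176 in the Y537S one with E2, whereas PLXNB2 had 26 and 173. The K303R library without E2, whose peak names share the wild-type tag, had a median of 47 fragments at the higher regions and 78 at the lower ones. These medians cover the 3296 higher and 2600 lower regions that its list held. They are not scaled between libraries, and the whole K303R list had a median of 24 fragments, against 27 in wild type.

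Classical estrogen receptor targets carried strong regions in both libraries and leaned towards wild type relative to the median region. Within 25 kb of 37 of 40 listed targets lay 188 compared regions, with a median log2 ratio of −0.13, against 0 over all compared regions by construction. Housekeeping and hepatocyte genes were lower still, at −0.17 each, while neuronal genes (0.019) and leukocyte genes (0.20) were above 0. Median wild-type counts were 133.5 at housekeeping, 115 at hepatocyte and 113.5 at target regions. The strength was thus not particular to the targets. A median below 0 was not either, but the housekeeping and hepatocyte medians rest on 24 and 26 regions. By calls those lists did not lean towards wild type, with 1 higher and 1 lower, and 4 and 2. Neuronal regions did, with 6 higher and 12 lower of 58. Of the target regions 14 (7.45%) were higher and 23 (12.2%) lower, beside 9.69% and 7.46% of all compared regions. Scaled by the lowest local background, which adds 0.225 to every region, the median was 0.099 against 0.225 over all compared regions. The 29 higher and 12 lower regions were then 15.4% and 6.38%, beside 17.7% and 3.34% of all. Within 5 Mb windows the median was −0.055, with 13 higher (6.91%) and 19 lower (10.1%), beside 8.21% and 6.57% of all. The progesterone receptor gene PGR had 327 fragments in the wild-type library and 168 in the Y537S one at its strongest region (0.538, 0.444 to 0.650; chr11:101033937-101034629). Another 2 of its 4 regions were called lower, with 89 and 29, and 80 and 34, and 0 higher. GREB1, an early estrogen-response gene, had 307 and 231 at its strongest region (0.789, 0.662 to 0.938; not called) and 179 and 74 at another (0.433, 0.326 to 0.571). XBP1, which drives secretory stress genes, had 348 and 264 at its strongest region, 13339 bp from its span (0.795, 0.675 to 0.936; not called), and 115 and 36 at one 22540 bp away (0.328, 0.219 to 0.481), where the ratio of deposited folds was 0.743 and not called. At GREB1 and XBP1 the strongest region was thus the one nearer to 1. SGK3, a survival kinase, had 162 and 55 (0.356, 0.257 to 0.486), and the retinoic acid receptor gene RARA had 90 and 30 at one region (0.349, 0.223 to 0.533), which also lies within 25 kb of the replication gene CDC6. The corepressor gene NRIP1 (92 and 29), the ubiquitin ligase gene SIAH2 (116 and 55) and TSKU (130 and 62) also held lower regions.

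A smaller group of 9 targets held higher regions, of which 2 also held lower ones. CCND1, the cyclin that starts the cell cycle downstream of the receptor, had 93 fragments in the wild-type library and 198 in the Y537S one inside its span (2.23, 1.74 to 2.89), and 134 and 192 at a second region (1.5, 1.20 to 1.89). SLC7A5, a large neutral amino acid transporter, had 35 and 99 (2.96, 2.00 to 4.49) and 55 and 123 (2.34, 1.69 to 3.28). CA12, a carbonic anhydrase on the cell surface, held 3 higher regions, from 77 and 170 fragments to 140 and 212. ADCY9, an adenylate cyclase, had 99 and 169, the receptor tyrosine kinase gene RET 117 and 171, and the secreted hormone gene STC2 52 and 89. CTSD moved both ways, with 2 higher regions, its promoter among them, and 2 lower ones 14387 and 19145 bp from its span (99 and 50, and 72 and 30). FHL2, a transcriptional cofactor, also did, with 69 and 111 fragments at one region and 208 and 131 at another. Regions of 1 gene share a locus and are not independent.

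Transcription factors of the luminal lineage, which shape where ERα binds, leaned the same way as the targets. Their 77 regions, near 15 of 18 genes, had a median log2 ratio of −0.22, with 5 higher (6.49%) and 12 lower (15.6%). Over all compared regions 9.69% were higher and 7.46% lower. Scaled by the lowest local background the median was 0.001, against 0.225 over all compared regions, with 7.79% lower beside 3.34% of all. Within 5 Mb windows it was −0.058. These regions had a median of 4 protein-coding genes within 500 kb, against 7 for all compared regions. Centred within 5 groups by this gene density, the median was −0.144, with 6 higher (7.79%) and 10 lower (13%). The shares of all compared regions were then 9.37% and 7.31%. ESR1, the gene of the receptor itself, held 7 compared regions, of which 3 were lower and 0 higher. They had 86 fragments in the wild-type library and 28 in the Y537S one (0.341, 0.214 to 0.528; chr6:151658041-151658887), 82 and 33, and 104 and 53. By the deposited folds the ratio at the one with coordinates given was 0.715 and not called. Its strongest region was level, at 98 and 99. GATA3 had 2 higher regions inside its span (61 and 112, 51 and 93) and a lower one 9842 bp away (125 and 56, 0.470, 0.336 to 0.648). GRHL2, an epithelial pioneer factor, had 2 lower regions (102 and 52, 98 and 50) beside its strongest one of 280 and 276 fragments. EHF held 2 lower regions and TRPS1 1, and FOXA1 had 0 calls among 6 regions. ELF3 had the most fragments of the list, 358 and 314 (0.919, 0.787 to 1.07).

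Androgen receptor targets and apocrine genes, the programme MDA-MB-453 is known for, had more higher regions than lower ones. Of 75 regions near 18 of 28 autosomal genes, 16 (21.3%) were higher and 5 (6.67%) lower. Over all compared regions the shares were 9.69% and 7.46%, and the list's median log2 ratio was 0.12. Within 5 Mb windows the counts were 15 (20%) and 5 (6.67%), beside 8.21% and 6.57% of all. The list's regions had a median of 12 protein-coding genes within 500 kb, against 7 for all compared regions. Centred within 5 groups by this gene density, the median was 0.057. The counts were 15 (20%) and 6 (8%), beside 9.37% and 7.31% of all. With the lowest local background as the scale, 23 (30.7%) were higher and 0 lower, beside 17.7% and 3.34% of all compared regions. NDRG1, a stress and androgen-response gene, held 5 of the higher regions among its 9, from 56 fragments in wild type and 149 in Y537S (2.79, 2.04 to 3.86) to 122 and 189 (1.62, 1.29 to 2.06). Fatty acid synthase, FASN, had 26 and 96 inside its span (3.87, 2.49 to 6.22; chr17:82085373-82086601) and 58 and 148 at GPS1 nearby, but 3 lower regions in the neighbouring CCDC57, the strongest with 283 and 173. ZBTB16 had 48 and 116, SLC45A3 57 and 145 at a region in NUCKS1, and CRAT 31 and 72 at one in PTPA. Lower beside FASN were a region of HPGD, a prostaglandin-degrading enzyme, with 189 and 105 (0.582, 0.454 to 0.743), and one of PMEPA1 with 314 and 190. The HPGD call was lost by the deposited folds (0.892), within 5 Mb windows (0.691), with the lowest local background (0.680) and in the E2 pair (0.699). SLC45A3 had the most fragments of the list, 298 and 323 (1.14, 0.967 to 1.33).

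Epithelial adhesion and keratin genes also held more higher than lower regions, 10 (14.9%) against 2 (2.99%) of 67, beside 9.69% and 7.46% of all compared regions, with a median log2 ratio of 0.14. Within 100 kb 11 of 127 were higher (8.66%) and the median was 0.043. Of these, 4 were at ST14, the membrane protease matriptase, from 21 and 82 at a region in APLP2 (4.09, 2.51 to 6.96) to 111 and 181. Another 2 were in PLA2G15 near the splicing factor gene ESRP2, and KRT8, a luminal keratin, had 50 and 116 (2.43, 1.73 to 3.46). The 2 lower regions were at the desmosome gene DSP (264 and 161) and the tight junction gene TJP1 (179 and 104), whose call was lost by the deposited folds (0.871), with the lowest local background (0.712) and in the E2 pair (0.826). These regions had a median of 29 protein-coding genes within 500 kb, against 7 for all compared regions. Gene density moved with the ratio genome-wide. Centred within groups of gene density the list had a median of 0.068 and 8 higher (11.9%), beside 9.37% of all. Basal and mesenchymal genes had 0 higher and 4 lower (11.8%) of 34, beside 9.69% and 7.46% of all. Of these 4, 3 were at LAMB3 and 1 at CDH2, and counts this small do not set the list apart. Nuclear receptor coregulators had 8 higher and 3 lower of 66, or 12.1% and 4.55% beside 9.69% and 7.46% of all. The arginine methyltransferase gene CARM1 had 50 and 138 at a region in C19orf38 (2.89, 2.08 to 4.08), and the histone methyltransferase gene KMT2D 114 and 179.

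Receptor tyrosine kinase and PI3K genes had 8 higher (12.3%) and 3 lower (4.62%) of 65, beside 9.69% and 7.46% of all, with a median log2 ratio of 0.14. With each library scaled by its median count over the compared regions, 5 (7.69%) were higher, beside 8.32% of all. AKT1, the kinase downstream of PI3K, held 5 of the higher regions, the largest change being 37 fragments in wild type and 101 in Y537S (2.86, 1.95 to 4.29), where the ratio of deposited folds was 1.35 and not called. ERBB2, which encodes HER2, had 34 and 68 at a region in STARD3, 118 and 31 at one in PGAP3 875 bp from its span (0.275, 0.179 to 0.412; chr17:39686883-39687571), and 328 and 316 at its strongest, so a single locus held all 3 outcomes. Cell cycle genes had 1 higher (3.7%), at E2F2 (63 and 116), and 1 lower (3.7%), the RARA region already given, of 27. The E2F2 call was lost by the deposited folds, with a ratio of 1.25. Lists for other cell types gave the scale of what unrelated loci show. Hepatocyte genes had 4 higher (15.4%) and 2 lower (7.69%) of 26, and leukocyte genes 5 (17.2%) and 2 (6.9%) of 29. Neuronal genes had 6 (10.3%) and 12 (20.7%) of 58, and housekeeping genes 1 and 1 of 24 (4.17% each). The lower neuronal calls were led by RBFOX3, a neuronal splicing factor gene with 6, from 84 and 30 fragments to 258 and 163. Shares past 10% thus also occurred at loci of genes listed for other tissues, such as 17.2% higher for leukocyte and 20.7% lower for neuronal genes.

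Higher calls were more frequent in gene-rich surroundings and lower calls in gene-poor ones. With the compared regions ranked by the number of protein-coding genes within 500 kb and cut into 5 groups of 7006, 6.34% were higher and 11.2% lower in the poorest group (median 1 gene), and 14.9% and 4.10% in the richest (median 23 genes). The shares moved steadily across the groups between, and the median log2 ratio went from −0.11 to 0.12. Centred within 5 Mb windows, this median went from −0.043 to 0.029. Of 3613 regions within 1 kb of a gene end, 12.2% were higher and 4.65% lower. Inside gene spans the shares were 10.4% and 6.96%, and outside genes 7.65% and 9.30%. Distances to a transcription start use the available promoter windows, which leave out chromosome 8 (1792 compared regions). Less than 250 bp from a transcription start the higher share was 10.0% and the lower share 3.24%. From 250 to 1000 bp away the shares were 13.8% and 4.53%, and past 100 kb 6.67% and 10.7%. GC content was available at the 517 promoters only. Their median log2 ratio was −0.22 in the poorest of 5 groups by GC (median 45.7%) and between 0.045 and 0.13 in the other 4 groups. Gene density and GC content moved with the ratio, and their part in the calls was not tested beyond centring within groups of gene density, an alternative chosen after seeing the data, which gave 3284 higher and 2562 lower regions, 3038 and 2324 of them among the calls above.

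**Figure D4:**
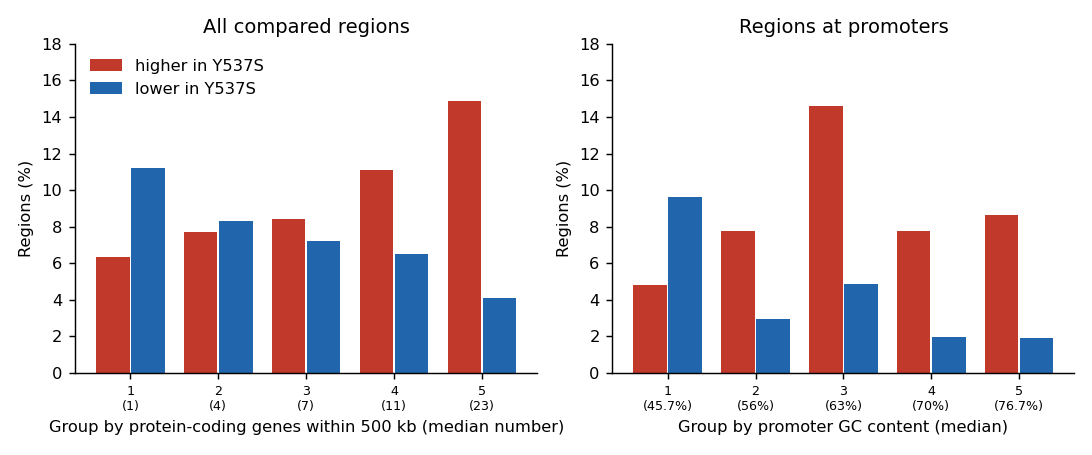
Share of regions (percent, y axis) called higher and lower in Y537S, in 5 groups by local gene density over all 35030 compared regions (left) and in 5 groups by GC content over 517 promoters (right), with the median of each group in brackets. Higher calls go from 6.34% to 14.9% and lower calls from 11.2% to 4.10% with gene density; at promoters the lower share is 9.62% in the group poorest in GC.

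Whole chromosomes differed too. Of the 22 autosomes, 18 had a median log2 ratio within 0.1 of 0. Chromosome 6 was the lowest, at −0.35 over 1765 regions, with 1.98% higher and 21.0% lower. It holds 5.04% of the compared regions and 370 (14.2%) of all lower calls. The local background on chromosome 6 was also lower, with a median log2 ratio of −0.39. ESR1, MYB, TPD52L1, ELOVL2, KCNK5 and SLC35B2 lie there, and the ESR1 region given above had a log2 ratio of −1.42 when centred within 5 Mb windows, against −1.55. Chromosome 15 stood at −0.16, chromosome 22 at 0.12 and chromosome 19 at 0.28, where 19.2% of 816 regions were higher and 2.57% lower and the background ratio was 0.34. Scaled by the lowest local background, chromosome 15 was at 0.063 and chromosome 6 still below 0, at −0.12. Centred on each chromosome's own median, 3262 regions were higher and 2449 lower.

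**Figure D5:**
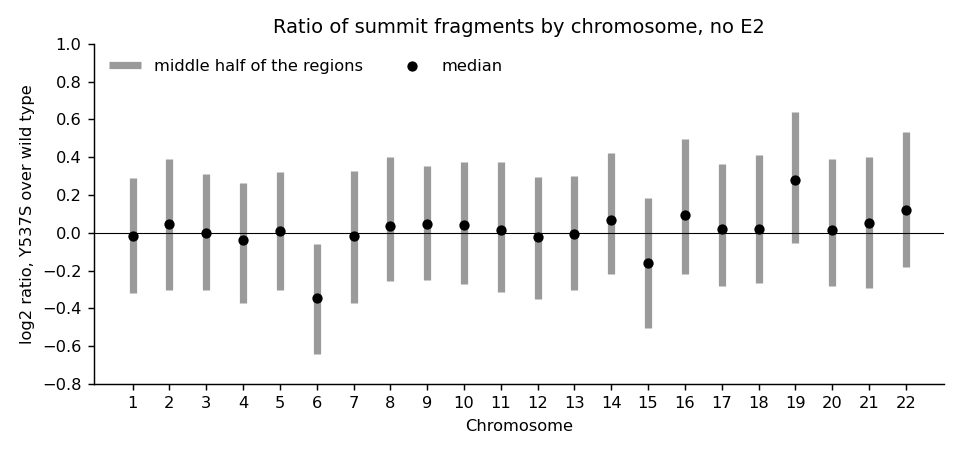
Log2 ratio of summit fragments, Y537S over wild type without E2 (y axis), for the compared regions of each autosome (x axis): the point is the median and the bar the range between the quartiles. Chromosome 6 lies lowest at −0.35 and chromosome 19 highest at 0.28.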

How the data were processed

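The deposited files are 1 peak list for each of the 6 ChIP-seq libraries, on genome build hg38 per the submitters' processing notes, which also name Bowtie2, SAMtools, Picard, bedtools and MACS2 without versions or roles. Any control library, peak threshold or read filter is not given in the sources used here. For each peak the authors' list gives a score, a fold enrichment (a ratio to local background) and the −log10 of a p-value and of a q-value. The score, which is 10 times the deposited −log10 q rounded down in 99.6% to 100.0% of entries, was not used. Peaks on chromosome X (4209 and 3479 in the 2 lists) were left out by the rule.

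Summit fragments n and local background λ were solved from the deposited fold, (n + 1)/(λ + 1), and the Poisson −log10 p, and the p was matched within 0.01% for 100.0% of peaks. Peaks were merged with pandas, and the overlap of the lists was found with bedtools 2.31.1. Ratios, exact counting intervals and medians used Python 3.11.15, NumPy 2.4.6, SciPy 1.17.1 and pandas 2.3.3, and calls were tested on simulated data. Genes came from RefSeq GRCh38.p14 spans, which have no strand or exons, and all 12 lists (265 genes, 261 of them on the chromosomes used) were matched by symbol. Promoter windows were present for 186 list genes, and chromosome 8 had no window.

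Named by rule were the 12 higher and 12 lower called regions whose interval lay farthest from 1, 1 per gene within 25 kb, the 5 strongest regions of each list alone, for each gene list the strongest region and the most changed call each way, and the 3 highest and 3 lowest protein-coding promoters. Other list genes were named after their values were seen. The results of some list genes are not reported here. The members and gene lists were chosen with earlier results of these data known. The alternatives were other minima, folds, scalings, centrings, overlaps and gene distances. No genome sequence was used here, so motifs were searched in promoters only.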

Additional observations from a re-analysis of the deposited data

How the results depend on the processing

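The direction of the named regions held under each alternative run, and their calls did in most. Of 46 named called regions, 43 kept the call when ratios were centred within 5 Mb windows, 42 when the libraries were scaled by their lowest local background, 35 in the libraries with E2 and 33 by ratios of the deposited folds, and 0 changed direction. Most named regions were chosen for large ratios. Of all calls, the deposited folds kept 617 of 3396 higher and 504 of 2613 lower ones. The counts moved more. With a minimum mean of 20 fragments 5655 regions were higher and 4374 lower, and with 100 they were 1309 and 830. A 2-fold threshold gave 1769 and 1359, ratios of deposited folds 915 and 801, and scaling by the lowest local background 6193 and 1171. Overlap was 70.9% of wild-type and 75.9% of Y537S peaks at 50% reciprocal overlap, 77.0% and 84.6% at a −log10 q of at least 10, which left 75169 Y537S peaks, and 81.5% of wild-type peaks among the strongest 50000 of each list. At estrogen receptor targets, scaling by the lowest local background, which adds 0.225 to all regions, gave a median log2 ratio of 0.099, still below that of all regions. Of the target regions 29 (15.4%) were then higher and 12 (6.38%) lower, beside 17.7% and 3.34% of all compared regions. A distance of 100 kb gave 23 higher (6.74%) and 45 lower (13.2%) of 341. Scaling each library by its median count over the compared regions, chosen after seeing the data, gave 8 higher (4.26%) and 24 lower (12.8%). The shares of all compared regions were then 8.32% and 8.82%. Scaling by the lowest local background also put the medians of the luminal factors (0.001) and of chromosome 15 (0.063) above 0, through the same shift. With it 21 chromosomes were past 0.1 either way, among them chromosome 6, which stayed below 0 at −0.122. The cause of the other changes was not tested. No paired analysis was possible because each group has 1 library. The precision is limited by fragments per summit, and line, receptor and tag cannot be separated.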

Other observations

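Some differences filled whole stretches of a chromosome. The windows below were chosen after their values were seen, from 1705 windows of 500 kb with at least 8 compared regions, of which 45 had a median past 1.5-fold higher and 29 past 1.5-fold lower. On chromosome 20 between 23500001 and 24000000, which holds the cystatin genes CST1, CST3, CST4 and CST5, inhibitors of cysteine proteases, 10 of 12 regions were lower and 0 higher, with a median of 120.5 fragments in wild type and 39 in Y537S and a median log2 ratio of −1.55. On the same chromosome between 24500001 and 25000000, at SYNDIG1, 6 of 8 were lower. On chromosome 6 between 56000001 and 56500000, at the collagen gene COL21A1 and the cytolinker gene DST, 6 of 8 were lower, and on chromosome 7 between 64500001 and 65000000, at the zinc finger genes ZNF138, ZNF273 and ZNF680, 7 of 12 were.

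Stretches higher in Y537S were gene-rich in several cases. On chromosome 14 between 102000001 and 102500000, at the chaperone gene HSP90AA1 and the autophagy gene TECPR2, 8 of 10 regions were higher and 0 lower, with medians of 79 fragments in wild type and 180.5 in Y537S and a median log2 ratio of 1.22. On chromosome 16 between 2000001 and 2500000, which holds TSC2 and MLST8, both in the mTOR pathway, 15 of 31 were higher and 0 lower. On chromosome 19 between 1000001 and 1500000, which holds the kinase gene STK11, the counts were also 15 of 31 and 0. The local background moved with these windows, by a median log2 ratio of −1.50 at the cystatin genes and 1.26 at HSP90AA1, and its part in the values was not tested.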
